A study of Homo sapiens with 6 samples.

Results

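Cytochrome P450 (CYP) and UDP-glucuronosyltransferase (UGT) genes were followed in A549 cells with and without IL17D overexpression. The genes were chosen by name, as every protein-coding gene of the count table whose symbol has the form of a CYP gene (CYP, a family number, a subfamily letter and a gene number) or of a UGT1, UGT2, UGT3 or UGT8 gene. This gave 77 genes, 55 CYP and 22 UGT, among 58735 genes in all. At least 1 read was counted on 59 of them, and the other 18 had no count in any library. Of the 59, 22 passed the filter on low counts and were tested, and 37 did not pass it.

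CYP enzymes are heme proteins of the endoplasmic reticulum and mitochondria that insert oxygen into drugs, carcinogens, steroids, fatty acids and vitamins, with electrons supplied by partner proteins. UGT enzymes then join sugar, mostly glucuronic acid from UDP-glucuronic acid, to such molecules and make them soluble enough to excrete. Many of these genes are switched on by ligand-activated factors, among them the aryl hydrocarbon receptor (AHR), which binds compounds of tobacco smoke, and the vitamin D and retinoic acid receptors, and the liver is the organ best known for high levels of both families.

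A549 is an established human lung adenocarcinoma line, sequenced here as 3 libraries of cells overexpressing IL17D and 3 of cells carrying the empty vector (control). In the study's methods the IL17D coding sequence was amplified from cDNA of H82, a small cell lung cancer line, and delivered by lentivirus in a vector whose name (pCCL.PPT.hPGK.IRES.GFP) lists an hPGK promoter, an IRES and GFP. The paper's immunoblots of transduced A549 cells include Flag, and its forward primer for the coding sequence carries that tag after the start codon. All cells were grown in RPMI1640 medium with serum. IL17D encodes a secreted cytokine of the interleukin-17 family, and the design asks what its overexpression changes in the tumor cells. Whether the 3 libraries of each kind are separate cultures is not stated, so p-values measure only the spread between these libraries, which may be technical.

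The libraries held 14319398 to 16521021 counts, and CYP and UGT genes together took 0.237 to 0.248% of them. IL17D had 24, 18 and 34 counts in the control libraries and 31274, 32155 and 26772 in the IL17D libraries. Its log2 fold change was 10.19 (adjusted p = 2.5e-47 by edgeR's quasi-likelihood test). With so few control counts its exact size is uncertain, and it ran from 10.05 to 10.44 over 14 alternative settings. Of the epithelial markers, KRT8, KRT18 and CDH1 were abundant, while KRT19 had at most 11 counts and EPCAM at most 21 in a library. CDH1 fell by 0.29 on the log2 scale in the IL17D libraries (adjusted p = 0.031 by edgeR). Whether that call holds in the alternative settings was not examined. The leukocyte genes PTPRC and CD3E and the hepatocyte gene TTR had no count, and the summed level stayed at or under 1.22 CPM (counts scaled to library size) for the leukocyte markers, 0.608 CPM for the endothelial and 0.484 CPM for the hepatocyte markers. Alveolar markers summed to at most 3.08 CPM, so the alveolar identity of the tissue of origin was hardly visible, and the fibroblast list summed to 19.3 to 24.3 CPM, nearly all of it COL1A1.

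The UGT1A genes are shown first as sequence, because their structure decides what a gene count can mean. All 9 lie on chromosome 2 within the span chr2:233617645-233773310 of GRCh38, on the plus strand, and each splices a first exon of its own to the same exon 2 at chr2:233767034-233767165. The following lines give the last 40 bases of exon 1 in lower case and the first 30 bases of exon 2 in capitals, read from one 5-exon GENCODE 29 transcript of each gene, for the gene with most counts and 3 others.
UGT1A1: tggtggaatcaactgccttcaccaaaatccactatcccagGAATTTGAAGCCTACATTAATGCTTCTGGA
UGT1A6: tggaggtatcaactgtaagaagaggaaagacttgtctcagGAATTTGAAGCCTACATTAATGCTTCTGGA
UGT1A9: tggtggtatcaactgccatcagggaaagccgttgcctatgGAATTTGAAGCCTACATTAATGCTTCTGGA
UGT1A4: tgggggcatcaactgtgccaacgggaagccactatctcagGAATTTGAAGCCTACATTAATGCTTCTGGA
The capitals are the same letters in all 9 genes, and the lower-case stretch takes 8 distinct forms, UGT1A4 and UGT1A5 being identical over it. A read that lies within the shared exons therefore carries no letter that tells the UGT1A genes apart. Between 40.6% (UGT1A7) and 80.0% (UGT1A3) of the exonic bases of a UGT1A gene are shared with another gene on the same strand.

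Promoter sequence was available for 57 of the 77 genes in the RefSeq table (GRCh38.p14), and the 250 bases before the start are shown for 4 of them: CYP1A1, the best known AHR target, CYP4F11, the most abundant member of the families with a sequence in the table, and CYP26B1 and CYP20A1, the pair with the smallest p-values below. Capitals mark letters that match GCGTG, the core of the xenobiotic response element of AHR, or TGACNNNGC, the antioxidant response element of NRF2, on either strand.
CYP1A1: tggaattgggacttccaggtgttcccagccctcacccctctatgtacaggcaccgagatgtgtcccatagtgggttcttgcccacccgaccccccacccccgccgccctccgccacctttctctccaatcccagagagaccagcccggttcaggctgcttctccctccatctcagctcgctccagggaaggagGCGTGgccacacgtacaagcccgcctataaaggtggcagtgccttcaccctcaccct
CYP20A1: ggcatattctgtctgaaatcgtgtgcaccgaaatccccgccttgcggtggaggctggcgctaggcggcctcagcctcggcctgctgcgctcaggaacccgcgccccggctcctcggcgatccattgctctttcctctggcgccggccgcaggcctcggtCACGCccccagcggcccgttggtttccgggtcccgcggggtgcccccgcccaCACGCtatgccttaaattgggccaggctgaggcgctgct
CYP4F11: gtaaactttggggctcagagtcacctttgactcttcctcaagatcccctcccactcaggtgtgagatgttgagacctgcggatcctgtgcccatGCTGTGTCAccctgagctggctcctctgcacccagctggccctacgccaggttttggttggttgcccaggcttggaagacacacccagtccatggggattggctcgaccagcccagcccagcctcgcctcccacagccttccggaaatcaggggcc
CYP26B1: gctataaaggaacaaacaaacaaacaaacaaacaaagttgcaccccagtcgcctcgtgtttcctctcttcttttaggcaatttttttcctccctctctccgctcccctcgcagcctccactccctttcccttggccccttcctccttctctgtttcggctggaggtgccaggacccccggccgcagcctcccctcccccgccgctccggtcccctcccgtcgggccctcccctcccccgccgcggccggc
These windows are chr15:74725529-74725778 (minus strand), chr2:203238768-203239017 (plus strand), chr19:15934868-15935117 (minus strand) and chr2:72147863-72148112 (minus strand). Over the full windows of the table, which run from 250 bases before to 50 bases after the start, the GCGTG core was found in 18 of 57 promoters of the families (31.6%) and in 36.3% of all 27305 promoters. The TGACNNNGC element was found in 8 of 57 (14.0%) and in 13.6% of all. A match describes letters only and says nothing about binding, in A549 or elsewhere. Sequence farther upstream was not searched.

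One enzyme held most of the signal. CYP24A1, the mitochondrial 24-hydroxylase that inactivates vitamin D, took 76.6 to 77.1% of all CYP and UGT counts in every library, and CYP24A1, CYP4F11, CYP4F3, CYP1B1 and CYP2S1 together took 94.4%. Expressed per kilobase of exonic length, so that genes can be compared, CYP24A1 had a mean of 470.0 CPM per kb over the 6 libraries. CYP4F11 followed with 48.9 CPM per kb, CYP2S1 with 23.1, CYP4F3 with 17.1, CYP1B1 with 11.3, CYP26B1 with 8.55, CYP2R1 with 4.96 and CYP20A1 with 2.67. Each of these neighbours was apart from the next in all 6 libraries. From there on the order was not resolved: CYP20A1, CYP51A1 (2.40 CPM per kb), CYP27C1 (1.82), CYP2U1 (1.37) and CYP1A1 (1.20) each overlapped the next gene in range. The place of CYP51A1 depends on the length used. Divided by only the exonic bases that no other gene shares, it had 14.3 CPM per kb. That value holds only if all its counts lie on those bases. The 11.3 of CYP1B1 is over its full exonic length, of which 13.0% is shared. The 22 UGT genes together had 293 counts over the 6 libraries, and CYP genes held 99.9% of the counts of both families. Reads on exons that the UGT1A genes share may be missing from these counts. Divided by its unshared bases only, UGT1A1 had 0.345 CPM per kb in place of 0.173.

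**Figure D1:**
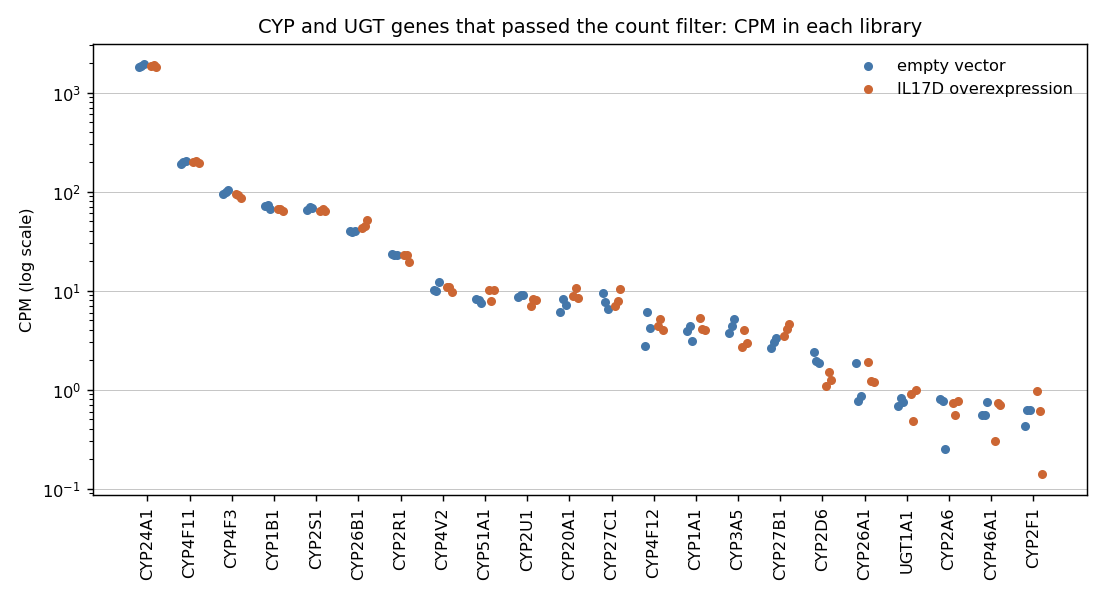
CPM (log axis) of the 22 CYP and UGT genes that passed the count filter, with 1 point for each of the 3 control and 3 IL17D libraries, ordered by mean CPM. CYP24A1 lies between 1822 and 1920 CPM in every library, CYP4F11 follows near 200 CPM with 188 to 202, and the points of the groups lie close together for most genes.

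No CYP or UGT gene passed the test between the groups. With edgeR's quasi-likelihood test and Benjamini-Hochberg adjustment over 15754 tested genes, 0 of 22 members were higher and 0 of 22 lower at an adjusted p under 0.05, where 0.673% of all tested genes were called higher and 0.908% lower. DESeq2 and limma voom likewise called 0. At an unadjusted p under 0.05 by edgeR there were 5 of 22 (22.7%), against 11.6% of all tested genes, and by DESeq2 there were 2. Libraries of the groups did not overlap in CPM for 5 of 22 members (22.7%), 3 higher and 2 lower in IL17D, against 15.8% of all tested genes. The members' log2 fold changes ran from -0.68 to 0.43 with a median of 0.05, and the median of all tested genes was -0.00044. For 12 of the 22 the 95% interval of the difference lay within 1.5-fold in either direction, and for the other 10 a larger difference was not excluded at these counts. In bulk RNA, a change in the number of cells that express a gene and a change in RNA per cell cannot be told apart.

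**Figure D2:**
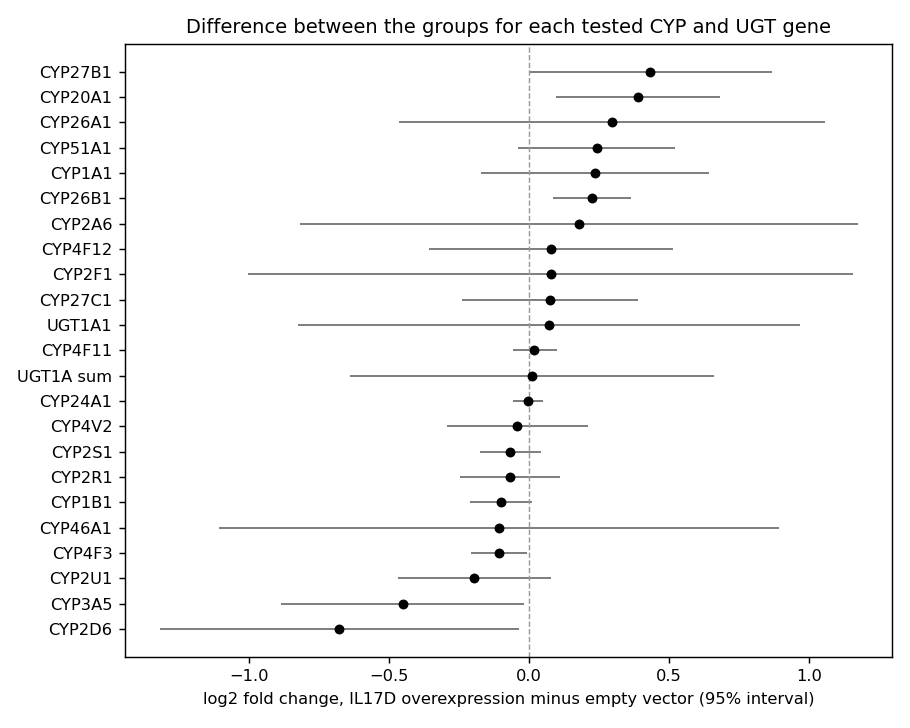
Log2 fold change (IL17D minus control) and its 95% interval for each of the 22 tested genes and for the summed UGT1A counts. Estimates run from -0.68 (CYP2D6) to 0.43 (CYP27B1), and the intervals are narrow for the abundant genes CYP24A1 and CYP4F11 and wide for genes near 1 CPM such as CYP2F1.

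Enzymes of vitamin D and retinoic acid were the most abundant group because of CYP24A1, which held 1870 of the group's mean of 1944 CPM in control. Of its 7 genes, 6 were tested. CYP24A1 (ENSG00000019186, chr20:54153449-54173973) measured 1826, 1862 and 1920 CPM in the control libraries and 1859, 1912 and 1822 CPM in the IL17D libraries. The groups overlapped fully, with means of 1870 ± 47.2 and 1864 ± 45.0 CPM (SD, n = 3). The log2 fold change was -0.004 (SE 0.0267, adjusted p = 0.98 by edgeR), with a 95% interval from -0.06 to 0.05. The receptor that induces this gene, VDR, was present at only 6.15 to 7.60 CPM, and its log2 fold change was 0.09 (adjusted p = 0.89).

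CYP26B1 (ENSG00000003137, chr2:72129238-72148038), which breaks down retinoic acid, had the smallest p of the families. It measured 39.5, 39.1 and 39.9 CPM in the control libraries and 42.6, 44.9 and 51.2 CPM in the IL17D libraries. All 3 IL17D libraries lay above all 3 controls, and IL17D replicate 3 was the highest. The log2 fold change was 0.23 (SE 0.0686), with an unadjusted p of 0.0024 and an adjusted p of 0.10 by edgeR. Without IL17D replicate 3 the log2 fold change was 0.15. Summed with CYP26A1, the log2 fold change was 0.23 (adjusted p = 0.085).

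The activating hydroxylases of vitamin D lay far below CYP24A1. CYP27B1, the 1-alpha-hydroxylase, measured 2.65, 3.04 and 3.30 CPM in control and 3.46, 4.14 and 4.56 CPM in IL17D libraries. Its groups did not overlap, but the log2 fold change of 0.43 (SE 0.213) did not pass (unadjusted p = 0.051, adjusted p = 0.43 by edgeR). CYP2R1, a 25-hydroxylase, measured 22.7 to 23.2 CPM in control and 19.6 to 23.1 CPM in IL17D libraries, the lowest being IL17D replicate 3. CYP27C1, a retinoid desaturase, ranged from 6.53 to 10.3 CPM with overlapping groups. CYP26A1, a second retinoic acid hydroxylase, ranged from 0.760 to 1.88 CPM, and 25.2% of its exonic bases are shared with the read-through gene model AL358613.3, which had no count. CYP26C1 had no count in any library.

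Of the enzymes that act on fatty acids and eicosanoids, 5 of 14 genes were tested. CYP4F11 (ENSG00000171903, chr19:15912367-15934867), a fatty acid and vitamin K omega-hydroxylase, measured 188, 197 and 202 CPM in control and 197, 202 and 196 CPM in IL17D libraries. The groups overlapped, and the log2 fold change was 0.02 (SE 0.0386, adjusted p = 0.91). CYP4F3 (ENSG00000186529, chr19:15640897-15662825), which inactivates leukotriene B4, measured 93.4, 97.8 and 103 CPM in control and 93.5, 93.3 and 85.7 CPM in IL17D libraries. IL17D replicate 3 was the lowest and the ranges just overlapped. The log2 fold change was -0.11 (SE 0.0497, unadjusted p = 0.038, adjusted p = 0.39 by edgeR). Of its 31-base words, 20.8% also occur in other genes, against 5.4% for CYP4F11. With all CYP4F genes summed the log2 fold change was -0.02.

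CYP2U1, which hydroxylates long-chain fatty acids, measured 8.68, 9.06 and 9.02 CPM in control and 7.05, 8.27 and 8.06 CPM in IL17D libraries. All IL17D libraries were lower, by 0.20 on the log2 scale in the fit (SE 0.134, adjusted p = 0.65 by edgeR). CYP4V2, a fatty acid hydroxylase, ranged from 9.67 to 12.2 CPM and CYP4F12 from 2.77 to 6.01 CPM, with overlapping groups. The other genes of the group had at most 14 counts over the 6 libraries (CYP2J2), and CYP4A11, CYP4B1 and CYP4F8 had none.

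Of the enzymes known for drugs and other foreign compounds, 7 of 20 were tested. Among them the AHR targets come first, since AHR induces both CYP1 enzymes of lung. CYP1B1 (ENSG00000138061, chr2:38066973-38109902) measured 72.1, 73.6 and 66.2 CPM in control and 66.0, 67.4 and 64.1 CPM in IL17D libraries. The groups overlapped, with a log2 fold change of -0.10 (SE 0.0545, adjusted p = 0.51 by edgeR). On the opposite strand 12.9% of its exonic bases are shared with other genes, among them CYP1B1-AS1, which had 152 counts against 6409 on CYP1B1. CYP1A1 (ENSG00000140465, chr15:74719542-74725610) measured 3.88, 4.42 and 3.11 CPM in control and 5.29, 4.07 and 3.99 CPM in IL17D libraries. IL17D replicate 1 was the highest and the groups overlapped, with a log2 fold change of 0.23 (SE 0.200, adjusted p = 0.73 by edgeR). CYP1A2, the third AHR target, had no count in any library, where 3 counts would be 0.182 to 0.210 CPM.

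CYP2S1 (ENSG00000167600, chr19:41193049-41207539), an epithelial enzyme of skin and airway, measured 65.7, 69.9 and 68.1 CPM in control and 64.3, 66.3 and 63.8 CPM in IL17D libraries. The ranges overlapped, and the log2 fold change was -0.07 (SE 0.0533, adjusted p = 0.71 by edgeR). CYP3A5, the main CYP3A enzyme of lung, measured 3.69, 4.36 and 5.16 CPM in control and 2.67, 4.01 and 2.94 CPM in IL17D libraries. IL17D replicate 2 lay inside the control range, and the log2 fold change was -0.45 (SE 0.213, unadjusted p = 0.041, adjusted p = 0.40 by edgeR). Summed over all CYP3A genes the log2 fold change was -0.38 (adjusted p = 0.50).

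CYP2D6, a hydroxylase of many drugs, had the lowest estimate of the families, from few reads. Its counts were 39, 28 and 30 in control and 18, 25 and 18 in IL17D libraries, that is 2.40, 1.94 and 1.87 against 1.09, 1.52 and 1.26 CPM. The groups did not overlap, and the log2 fold change was -0.68 (SE 0.316, unadjusted p = 0.039, adjusted p = 0.40 by edgeR). However, 45.8% of its 31-base words also occur in the neighbouring pseudogenes CYP2D7 and CYP2D8P, so the counts of the 3 are uncertain where reads could be split. CYP2D7 had 103 and CYP2D8P 74 counts over the 6 libraries, with overlapping groups. With the counts of the 3 summed, the log2 fold change was -0.32 (adjusted p = 0.66).

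The remaining enzymes of foreign compounds were near the limit of detection. CYP2A6, which oxidises nicotine, had 4 to 13 counts a library and shared 48.2% of its 31-base words with other genes, mainly CYP2A7. CYP2F1, a lung enzyme, had 2 to 16 counts a library. CYP2W1 had 62 counts over all libraries and CYP3A4, the main hepatic drug oxidase, 38. CYP2C8, CYP2C19, CYP2A13 and CYP1A2 had none.

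CYP20A1, an enzyme without an established substrate, had the second smallest p. It measured 6.03, 8.23 and 7.15 CPM in control and 8.81, 10.6 and 8.48 CPM in IL17D libraries. All IL17D libraries lay above the controls, by a narrow margin between control replicate 2 and IL17D replicate 3. The log2 fold change was 0.39 (SE 0.144), with an unadjusted p of 0.011 and an adjusted p of 0.24 by edgeR.

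Of 7 enzymes of cholesterol and bile acid, 2 were tested. CYP51A1, the lanosterol demethylase of cholesterol synthesis, measured 8.25, 7.95 and 7.40 CPM in control and 10.2, 7.78 and 10.0 CPM in IL17D libraries. The groups overlapped through IL17D replicate 2, and the log2 fold change was 0.24 (SE 0.138, adjusted p = 0.53 by edgeR). The level of this gene in the table is uncertain. In GENCODE 29, 79.4% of its exonic bases are shared with other gene models on the same strand, AC000120.2 among them. AC000120.2 had 0 counts in every library. Of the same synthesis, 3 other enzymes had 551 to 1735 counts a library (SQLE, LSS and DHCR7), against 115 to 167 for CYP51A1. Divided by the 602 exonic bases that no other gene shares, in place of all 3584, CYP51A1 had the 14.3 CPM per kb given above. CYP46A1, a brain cholesterol hydroxylase, ranged from 0.304 to 0.746 CPM. CYP39A1 had 56 counts over all libraries, CYP27A1 23 and CYP7A1, which begins bile acid synthesis, 2.

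Steroid hormone synthesis was close to silent in these libraries. Of its 6 genes none was tested, CYP11A1 had 4 counts, CYP17A1 and CYP19A1 (aromatase) had 1 each, and CYP21A2, CYP11B1 and CYP11B2 had none.

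The UGT1A genes, which conjugate bilirubin and many drugs and phenols, were low in both groups. UGT1A1, the bilirubin-conjugating enzyme and the only UGT gene that was tested, had 11, 12 and 12 counts in control and 15, 8 and 14 in IL17D libraries. Its log2 fold change was 0.07 (SE 0.441, adjusted p = 0.98), and the 95% interval from -0.82 to 0.97 left a wide range open. UGT1A6, which conjugates small phenols, had 3, 4 and 7 counts in control and 6, 6 and 5 in IL17D libraries. UGT1A7 and UGT1A9 had 16 counts each over the 6 libraries, UGT1A8 had 3, UGT1A3 and UGT1A5 had 2 each, UGT1A4 had 1 and UGT1A10 had none.

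Because the exons are shared, the 9 UGT1A genes were also summed. The sums were 24, 21 and 26 counts in control and 26, 23 and 23 counts in IL17D libraries, or 1.48, 1.45 and 1.62 against 1.58, 1.40 and 1.61 CPM. The groups overlapped, and the log2 fold change was 0.01 (SE 0.320, adjusted p = 1.0 by edgeR), with a 95% interval from 0.642-fold to 1.58-fold. UGT1A10 shares 70.7% of its exonic bases and had 0 counts in libraries where other UGT1A genes had counts. Any reads on the exons it shares were therefore not counted once for every gene. Gene counts do not show whether there were such reads. How such reads were treated is not given in the sources used here, so the sum may leave them out.

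**Figure D3:**
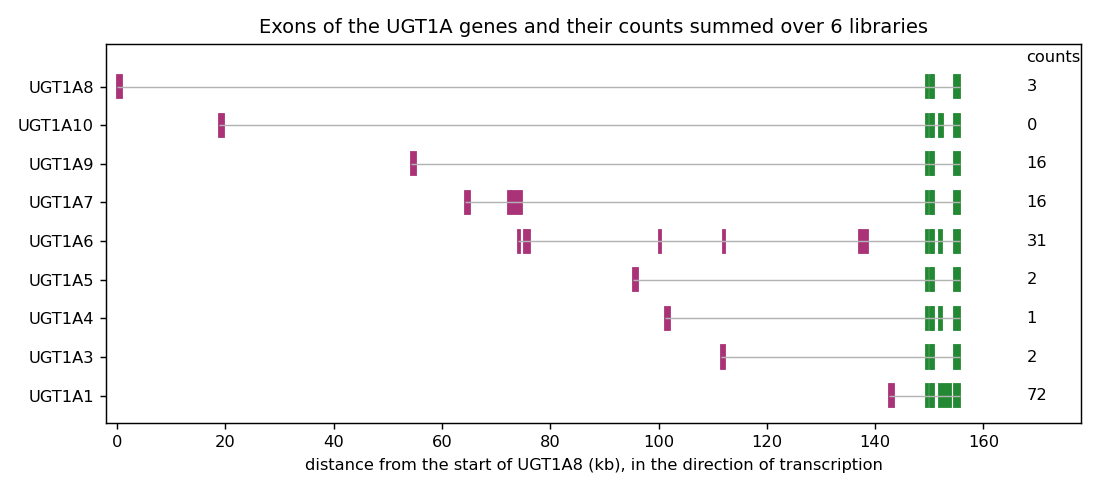
Exons of the 9 UGT1A genes against distance from the start of UGT1A8 in kb, with the exons from the common exon 2 onward in green and exons before it in purple; the shortest exons are widened to be visible. The counts at the right are summed over 6 libraries: 72 for UGT1A1, 31 for UGT1A6, 16 each for UGT1A7 and UGT1A9, and at most 3 for the others, all of which end in the same exons.

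The UGT2 genes, which conjugate steroids and bile acids, had no tested member among 10. UGT2B7 had 40 counts over the 6 libraries, UGT2B11 27, UGT2A3 17, and UGT2B15, UGT2B28, UGT2B10 and UGT2B4 between 1 and 8. UGT2B17, UGT2A1 and UGT2A2 had no count. UGT8, which makes galactosylceramide, had 5, 6 and 3 counts in control and 12, 16 and 3 in IL17D libraries, with overlapping groups and no test. UGT3A1 had 1 count and UGT3A2 none.

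The genes that feed and regulate these enzymes were followed as 109 genes in 8 lists, of which 88 were tested and 4 passed, 1 higher and 3 lower in IL17D, where 0.673% of all tested genes were called higher and 0.908% lower. Their median log2 fold change was -0.009, next to -0.00044 for all tested genes. Among the 12 electron donors 11 were tested and none passed. POR, the reductase that supplies all microsomal CYP enzymes, measured 169, 156 and 155 CPM in control and 147, 139 and 145 CPM in IL17D libraries. All IL17D libraries were lower, and the log2 fold change of -0.15 (SE 0.0429) had an adjusted p of 0.059 by edgeR. Without control replicate 3, the lowest control, the adjusted p was 0.025, and it was 0.037 with all genes of at least 1 count tested. The mitochondrial donors FDX1 and FDXR, which serve CYP24A1 and CYP27B1, had log2 fold changes of 0.15 and -0.07 (adjusted p = 0.43 and 0.56).

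All 10 genes of the AHR axis were tested and none passed, with 7 estimates above 0 and 3 below. The smallest p of the list was that of ARNT2, at 56.1, 56.1 and 57.4 CPM in control and 48.7, 50.1 and 48.7 CPM in IL17D libraries. Its log2 fold change was -0.20 (unadjusted p = 0.0014, adjusted p = 0.073 by edgeR). AHR itself measured 29.8, 31.5 and 34.0 CPM in control and 35.0, 35.1 and 34.1 CPM in IL17D libraries, a log2 fold change of 0.13 (adjusted p = 0.54). AHRR, the repressor that AHR induces, measured 5.97, 5.67 and 6.34 CPM in control and 4.13, 4.74 and 5.05 CPM in IL17D libraries. Its groups did not overlap, and the log2 fold change was -0.37 (SE 0.168, adjusted p = 0.37 by edgeR). TIPARP, another AHR target, measured 56.0, 52.0 and 54.5 CPM in control and 60.9, 58.7 and 57.8 CPM in IL17D libraries. It was higher in all IL17D libraries, with a log2 fold change of 0.13 (adjusted p = 0.38). The induced genes of the axis thus lay on both sides of 0 and none passed the test.

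Among the 25 nuclear receptors and liver factors, 23 were tested and 1 passed. FOXA2, a pioneer factor of endoderm and lung epithelium, measured 45.2, 41.6 and 40.3 CPM in control and 34.0, 36.9 and 32.2 CPM in IL17D libraries. All IL17D libraries were lower, and FOXA2 fell by 0.30 on the log2 scale (SE 0.0709, adjusted p = 0.016 by edgeR). The call was lost without control replicate 1 (adjusted p = 0.15), IL17D replicate 1 (0.081) or IL17D replicate 3 (0.16). Next in the list by p were HNF4A and PPARA, with log2 fold changes of -0.30 and -0.31 (adjusted p = 0.095 and 0.12 by edgeR). The list's median log2 fold change was -0.02, with 10 estimates above 0 and 13 below.

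Of the 6 NRF2 regulators 1 passed. MAFK, a small MAF partner of NRF2, measured 323, 353 and 298 CPM in control and 365, 342 and 385 CPM in IL17D libraries. It was called higher with a log2 fold change of 0.17 (SE 0.0437, adjusted p = 0.040 by edgeR), although IL17D replicate 2 lay below control replicate 2. The call was lost with DESeq2 (adjusted p = 0.54), with total-count scaling (0.055), and without control replicate 1 (0.11), control replicate 3 (0.20), IL17D replicate 1 (0.13) or IL17D replicate 3 (0.34), where the lowest log2 fold change was 0.11. NFE2L2 (NRF2) and its inhibitor KEAP1 had log2 fold changes of 0.08 and -0.00 (adjusted p = 0.61 and 1.0).

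Of the 10 genes of UDP-sugar supply and deconjugation, all tested, 1 passed. UGDH, the dehydrogenase that makes the UDP-glucuronic acid used by UGT enzymes, measured 617, 655 and 672 CPM in control and 581, 600 and 595 CPM in IL17D libraries. All IL17D libraries were lower, and UGDH fell by 0.13 on the log2 scale (SE 0.0322, adjusted p = 0.027 by edgeR). The call was lost without control replicate 2 (adjusted p = 0.11), control replicate 3 (0.12), IL17D replicate 1 (0.20) or IL17D replicate 3 (0.13).

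Of the 28 other phase II enzymes, 17 were tested and 1 passed, and the list's median log2 fold change was -0.08. MGST2, a microsomal glutathione transferase that also makes leukotriene C4, measured 20.4, 20.5 and 21.0 CPM in control and 15.3, 15.2 and 15.6 CPM in IL17D libraries. The groups were well apart, and MGST2 fell by 0.43 on the log2 scale (SE 0.0939, adjusted p = 0.0083 by edgeR), a call that held without any 1 library. Of the 16 other phase I enzymes 10 were tested and none passed. The thromboxane synthase gene TBXAS1, a CYP gene with another kind of name, measured 8.85 to 10.4 CPM in control and 7.29 to 8.27 CPM in IL17D libraries, with a log2 fold change of -0.37 (adjusted p = 0.21).

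**Figure D4:**
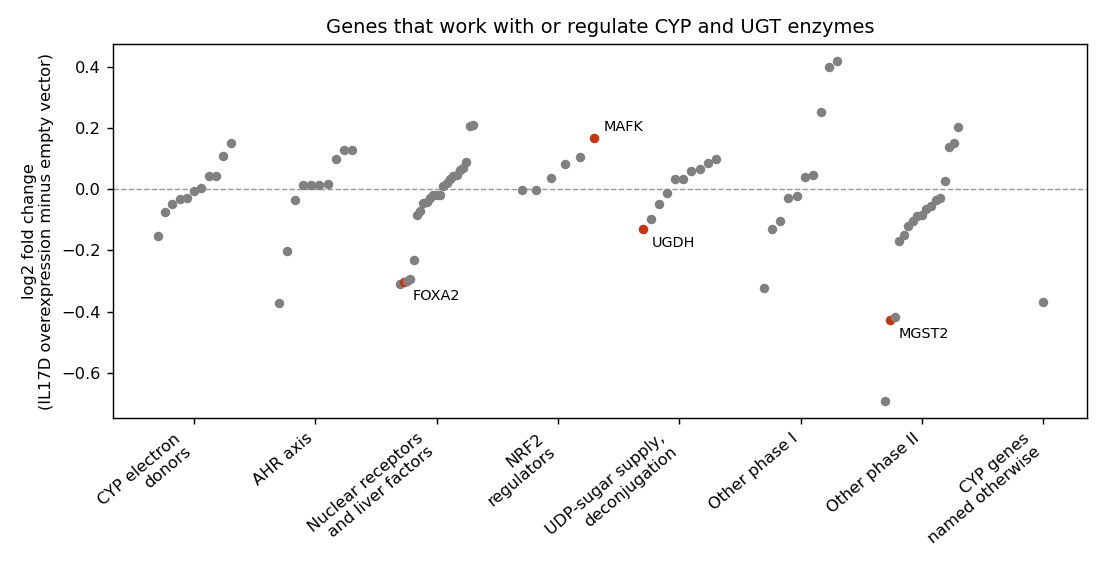
Log2 fold change (IL17D minus control) of the 88 tested partner genes, 1 point a gene, sorted within 8 lists. The 4 genes with an adjusted p under 0.05 are red and named: MAFK at 0.17, UGDH at -0.13, FOXA2 at -0.30 and MGST2 at -0.43.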

How the data were processed

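RNA-seq counts from 3 IL17D-overexpressing and 3 empty-vector A549 libraries were analysed, with groups and replicate numbers from the sample labels. The authors deposited 1 table of read counts per gene with no normalization, and it gives gene coordinates, lengths and types. The submitters' processing notes name Bowtie2 and hg38, and how reads were counted, and whether strand was used, is not given in the sources used here. Coordinates of 58724 of 58735 genes equal those of GENCODE 29.

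Genes were kept by edgeR's filterByExpr, scaled by TMM and tested without covariates by edgeR's quasi-likelihood test. Tests were two-sided, with Benjamini-Hochberg adjustment over 15754 genes and a threshold of 0.05. CPM used TMM library sizes, errors of CPM are the SD of 3 libraries, and the floor was 3 counts. Each SE of a log2 fold change was computed as its size divided by the square root of the test's F statistic. The 95% intervals rest on that SE. Depth was 14319398 to 16521021 counts a library, and counting intervals are covered by the fitted 95% intervals only. No pair of libraries agreed within sampling noise (chi-square per degree of freedom of 2.19 or more). Shared bases and words of 31 bases were computed from GENCODE 29, and promoters were read from the RefSeq table (GRCh38.p14). R 4.3.3, edgeR 4.0.16, limma 3.58.1, DESeq2 1.42.0, Python 3.11.15, numpy 2.4.6, pandas 2.3.3 and matplotlib 3.10.9 were used. The edgeR fit was also run on counts simulated with dispersions estimated from these data, as a check of the code only.

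The members, lists and tests were chosen with earlier results of these data known. Genes named by rule were IL17D, the 12 members with most CPM per kb, members at an unadjusted p under 0.05, UGT1A genes with counts, AHR, AHRR, TIPARP, VDR and POR, and partner genes at an adjusted p under 0.05. Other genes were named to account for each role after their values were seen. The alternatives were other scalings, tests, filters, summed subfamilies, the replicate block and leaving out each library.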

Additional observations from a re-analysis of the deposited data

How the results depend on the processing

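No CYP or UGT gene was called in the 14 alternative settings where calls were counted gene by gene. In the settings that summed subfamilies or pseudogenes, only sums that hold named genes were read, and none passed. The lowest adjusted p that CYP26B1 reached was 0.063. The count at an unadjusted p under 0.05 was 2 to 5 when 1 library was left out. The summed UGT1A log2 fold change, 0.01 in the report, ran from -0.024 to 0.074 without 1 library, changing sign, with an adjusted p of at least 0.98. Estimates near 0 also changed sign when 1 library was left out. They ran from -0.022 to 0.016 for CYP24A1, from -0.006 to 0.046 for CYP4F11, from -0.11 to 0.002 for CYP2R1, from -0.087 to 0.23 for CYP27C1 and from -0.10 to 0.33 for UGT1A1. CYP4F11 stood at -0.019 with subfamilies summed and at -0.015 with pseudogenes summed, an alternative chosen after seeing the data. The cause was not tested.

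Partner genes called numbered 1 to 4 when 1 library was left out: 2 without control replicate 1, and 1 without IL17D replicate 1 or without IL17D replicate 3. MGST2 kept its call in all 14 alternatives run for it, with an adjusted p from 0.0052 to 0.041. FOXA2 lost its call in 3 of 14 (adjusted p up to 0.16), UGDH in 4 (up to 0.20) and MAFK in 6 (up to 0.54), DESeq2's test and scaling by total counts among these. POR was called in 3 of 14, among them the filter of at least 1 count and the fit without control replicate 3 (adjusted p = 0.025).

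Same-numbered libraries did not deviate together (correlations of 0.0255, -0.0314 and -0.0228), and the highest value, 0.0813, joined control replicate 3 and IL17D replicate 2. Such correlations also carry counting noise, so a shared culture or preparation is not excluded. With the replicate block, 0 members and 6 partner genes were called, POR among them (adjusted p = 0.046), and the UGT1A log2 fold change was 0.015. Low counts limit the UGT genes and all genes near 1 CPM. For the UGT1A genes, reads on shared exons may also have been left out.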

Other observations

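CYP pseudogenes, which were outside the choice of genes by name and were picked here after their values were seen, had more counts than many coding members. CYP4F26P, on chromosome 9, had 68, 72 and 78 counts in control and 94, 100 and 59 in IL17D libraries, a mean of 4.99 CPM and a log2 fold change of 0.19 (adjusted p = 0.76 by edgeR). CYP2T1P had 99 counts over the 6 libraries, CYP4F29P 70 and CYP2F2P 65, against 62 for CYP2W1, the highest coding member below the filter. CYP4F29P had 12, 13 and 15 counts in control and 12, 10 and 8 in IL17D libraries, with an adjusted p of 0.79. Reads of such copies cannot be placed with certainty where they share sequence with a coding gene. The AGGTCA half-site of nuclear receptors, searched after results were known, was found in 17 of 57 member promoters (29.8%) and in 13.9% of all 27305 promoters of the same length. This is a description of letters, with no test.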
